A study of Mus musculus with 12 samples.

Results

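The comparison is between eyelid libraries collected at 21h and at 15h, over both diets. Its members are 8 of the 12 RNA-seq libraries of the series: the 4 whose labels give 21h and the 4 whose labels give 15h. Diet entered the fit as a blocking factor, so that each time difference was taken within a diet. All mice were male C57BL/6 with no engineered allele named, 6 to 8 weeks old when they entered the study, under 12 h of light per day. They ate either a standard diet with 10 kcal% fat (the control libraries, CTL) or one with 60 kcal% fat (the high-fat libraries, HF). The sample labels give 3 months of diet and the series text gives 4 months. At 15h there were control libraries 2 and 3 and high-fat libraries 2 and 6. At 21h there were control libraries 1 and 2 and high-fat libraries 3 and 6. Wherever 4 values are given for a time, they stand in that order. The sources used here do not say at what hour the lights came on, or whether a library holds 1 mouse or several, so each p-value measures the spread between these libraries.

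According to the labels the tissue is meibomian gland, the sebaceous gland of the eyelid margin whose lipid coats the tear film, while the series text speaks of entire eyelids. Markers of the lipid-secreting cells were abundant: the 12 marker genes summed to between 6648 and 9211 FPKM at 15h and between 6054 and 8983 FPKM at 21h, and none was at 0. FPKM is the number of reads mapped to a gene, scaled by the gene's exon length and the library's depth. The 18 skeletal muscle markers summed to 2911 to 5470 FPKM at 15h and 3224 to 4908 FPKM at 21h, and the 8 markers of basal keratinocytes to 4499 to 5316 and 4436 to 5373 FPKM. Going by the muscle markers, the samples held other tissue of the lid beside the gland. In such bulk tissue, fewer cells of a type and less RNA per cell cannot be told apart.

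The circadian clock is a loop of transcription factors present in nearly every cell. ARNTL (BMAL1) paired with CLOCK or NPAS2 binds the E-box CACGTG and switches on the Per and Cry genes, whose proteins later repress that pair. The nuclear receptors encoded by Nr1d1 and Nr1d2 (the REV-ERBs) repress, and that encoded by Rora activates, a further set of clock genes including Arntl. DBP, TEF and HLF act through a different sequence, the D-box TTATGTAA, at which NFIL3 is their antagonist. Through these factors the clock times processes such as lipid metabolism and cell division in skin and its glands.

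No gene passed the test across all genes. The fit (limma on log2(FPKM + 1), Benjamini-Hochberg adjustment) called 0 of 13228 genes, 0%, at an adjusted p under 0.05, and the smallest adjusted p was 0.222. At an unadjusted p under 0.05 there were 779 genes, 5.89% of those tested, with 441 higher at 21h (3.33%) and 338 lower (2.56%). limma-voom on reads recovered from the FPKM values also called 0 genes. It placed 740 below an unadjusted p of 0.05. The 4 libraries of one time lay wholly above or below those of the other for 391 genes (2.96%), 197 of them higher at 21h (1.49%) and 194 lower (1.47%). The median absolute log2 difference over all genes was 0.07, below the median standard error of 0.09, and 48.1% of genes had a positive difference. All descriptions that follow are of values and of counts at an unadjusted p, beside these shares, and none of the genes named is a call. The recovered depth of the 8 libraries was 14096362 to 16629317 reads. At this depth 1 read on a gene with 2 kb of exon equals 0.0301 to 0.0355 FPKM.

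Promoter sequences show which of the named genes carry the letters that the clock factors bind. RefSeq promoter windows (GRCm38.p6), the 250 bases before each transcript start, were searched on both strands for the E-box CACGTG, the D-box TTATGTAA, the cAMP element TGACGTCA and the heat shock element TTCNNGAA. Of the 45 genes named by rule, 35 had an entry. The E-box was found in 8 of the 35, the D-box in 2, the cAMP element in 1 and the heat shock element in 0. Among all 32851 promoters, 6.02% held the E-box, 0.819% the D-box, 1.55% the cAMP element and 7.17% the heat shock element. The counts for named genes are by gene, over any of its windows. By gene, of 27025 genes 1854 held the E-box, 264 the D-box, 478 the cAMP element and 2193 the heat shock element. Of the 35 genes, 24 were named as clock genes. These made up 6 of the 8 with an E-box and the 2 with a D-box. The naming rule thus favours these letters, and the counts are no test of the comparison. Of the 10 genes with the smallest p in the comparison, 6 had an entry and 2 of these had an E-box: Cry1, whose E-box starts at base -60, and Lce3a, at base -159. These 2 windows are printed because they belong to genes at the top of the comparison. Ciart and Per3 are printed beside them because their windows hold several of the same letters while their levels at 15h and 21h overlapped. Capitals mark the E-boxes in Cry1 (chr10:85185055-85185304, minus strand), Lce3a (chr3:92926231-92926480, minus strand) and Ciart (chr3:95882229-95882478, minus strand), and the D-boxes in Per3 (chr4:151044666-151044915, minus strand).
Cry1: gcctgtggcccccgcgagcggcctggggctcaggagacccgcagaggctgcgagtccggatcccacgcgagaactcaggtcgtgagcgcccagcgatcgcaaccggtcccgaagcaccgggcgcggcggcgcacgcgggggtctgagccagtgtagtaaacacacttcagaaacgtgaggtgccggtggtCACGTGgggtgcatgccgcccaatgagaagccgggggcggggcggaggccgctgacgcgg
Lce3a: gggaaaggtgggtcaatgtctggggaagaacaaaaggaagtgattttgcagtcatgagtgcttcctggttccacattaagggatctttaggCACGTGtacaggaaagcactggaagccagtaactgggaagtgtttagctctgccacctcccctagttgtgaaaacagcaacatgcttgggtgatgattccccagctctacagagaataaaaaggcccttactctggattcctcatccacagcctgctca
Ciart: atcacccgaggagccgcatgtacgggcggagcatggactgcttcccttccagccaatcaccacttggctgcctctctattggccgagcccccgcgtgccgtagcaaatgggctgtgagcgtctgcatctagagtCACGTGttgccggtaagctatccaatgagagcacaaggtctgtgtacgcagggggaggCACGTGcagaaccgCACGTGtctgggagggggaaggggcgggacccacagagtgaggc
Per3: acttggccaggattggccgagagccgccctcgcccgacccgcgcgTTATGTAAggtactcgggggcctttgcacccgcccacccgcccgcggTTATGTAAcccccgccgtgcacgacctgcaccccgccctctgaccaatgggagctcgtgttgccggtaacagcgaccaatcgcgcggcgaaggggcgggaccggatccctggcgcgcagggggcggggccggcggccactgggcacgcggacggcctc
No printed window holds more than 1 kind of these motifs, and no matches overlap. The Ciart E-boxes start at bases -116, -58 and -44. Per2, Bhlhe40, Wee1, Fmo1, Mrgprf and Scx are among the genes without an entry.

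Cry1 and Per2, a pair of clock repressors that act together as a protein complex, had mean levels 1.91 and 2.02 times as high at 21h as at 15h. Cry1 (ENSMUSG00000020038, GRCm38 chromosome 10, 85131700 to 85185064, minus strand) was at 4.72, 5.57, 5.76 and 5.97 FPKM at 15h and at 11, 9.89, 11.8 and 9.38 FPKM at 21h. The groups were apart on both diets. The means were 5.50 ± 0.549 and 10.5 ± 1.09 FPKM (SD, n = 4 each) and the log2 difference was 0.82 ± 0.09 (SE), with a limma adjusted p of 0.222. It had the smallest p of all genes. Per2 (ENSMUSG00000055866, chromosome 1, 91415982 to 91459324, minus strand) was at 5.60, 7.02, 7.79 and 5.76 FPKM at 15h and at 15.2, 13.4, 13.3 and 10.9 FPKM at 21h. Again every 21h library was above every 15h library, with a log2 difference of 0.91 ± 0.12 and a limma adjusted p of 0.251. The difference was 0.74 to 0.93 for Cry1 and 0.83 to 1.02 for Per2 over 19 other ways of processing.

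Nr1d1 (ENSMUSG00000020889, chromosome 11, 98767932 to 98775333, minus strand), which encodes the repressor REV-ERB alpha, showed the opposite order. Its levels were 28.6, 21.8, 22.9 and 11.7 FPKM at 15h and 6.57, 12.6, 7.54 and 7.52 FPKM at 21h. The lowest 15h library, high-fat 6, was below the highest 21h library, control 2, so the groups overlapped. The log2 difference was -1.19 ± 0.24, with a limma adjusted p of 0.6. Its close relative Nr1d2 was at 30.1, 33.1, 38.0 and 22.8 FPKM at 15h and at 26.0, 28.9, 24.1 and 26.3 FPKM at 21h, a log2 difference of -0.21 ± 0.14. For Nr1d2 the groups overlapped as well, and the same high-fat library was the lowest of the 8.

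The activators were close to level between the times. Rora, an activating nuclear receptor of the same response element, overlapped (12.1 to 22.6 FPKM at 15h, 13.1 to 16.4 FPKM at 21h). Clock differed by -0.10 ± 0.06 on the log2 scale, Npas2 by 0.03 ± 0.08, Arntl2 by -0.08 ± 0.10 and Arntl by -0.13 ± 0.14. Of these 5 activators, 0 were at an unadjusted p under 0.05 (5.89% of all genes were), and their median log2 difference was -0.10.

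The remaining repressors did not separate the times. Of 13 genes, Cry1 and Per2 were higher and Nr1d1 lower at an unadjusted p under 0.05, against 3.33% and 2.56% of all genes. The median log2 difference was 0.05, against -0.0045 for all genes. Per3 was at 8.01, 9.91, 13.0 and 7.19 FPKM at 15h and 8.52, 11.7, 10.1 and 10.7 FPKM at 21h. Ciart, a repressor of the ARNTL pair whose window holds 3 E-boxes, was at 8.14, 8.90, 13.9 and 10.7 FPKM and then at 11.3, 10.3, 13.2 and 9.55 FPKM. Both genes had standard errors (0.17 and 0.14) larger than their log2 differences (0.12 and 0.10). Cry2, Bhlhe40, Bhlhe41, Csnk1d, Csnk1e and Timeless had log2 differences of -0.08 to 0.16. Per1, which glucocorticoids and neuronal or serum stimuli also induce, ranged from 7.18 to 32.6 FPKM at 15h and from 11.7 to 30.2 FPKM at 21h.

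Among 10 clock output genes, 3 were higher at an unadjusted p under 0.05 and 0 lower, against 3.33% and 2.56% of all genes. The 3 were Inmt, Wee1 and Tspan4. This list was chosen with earlier results of these data known, so its count is no independent evidence. The count of higher genes was 1 without control library 2 at 15h and 1 without control library 1 at 21h. Inmt, a methyltransferase of indoleamines, was at 24.3, 25.1, 21.2 and 17.7 FPKM at 15h and at 29.5, 28.3, 33.5 and 34.7 FPKM at 21h, with no overlap and a log2 difference of 0.50 ± 0.12 (limma adjusted p = 0.786). Wee1, the kinase that holds back entry into mitosis, was at 8.07, 11.9, 10.7 and 10.4 FPKM at 15h and 16.6, 11.9, 13.5 and 12.6 FPKM at 21h, a log2 difference of 0.38 ± 0.14. Tspan4, a tetraspanin, differed by 0.27 ± 0.10, with overlapping groups. Dbp, the D-box activator, was at 22.8, 22.7, 26.3 and 10.8 FPKM at 15h and at 10.1, 17.6, 11.8 and 12.5 FPKM at 21h. For Dbp 3 libraries at 15h were above all 4 at 21h and high-fat library 6 lay among the 21h values. Its log2 difference was -0.59 ± 0.26 with all libraries. It was -0.86 without high-fat library 6 at 15h and -0.37 without high-fat library 2 at 15h. Tef and Hlf, which act on the same D-box, differed by 0.06 ± 0.15 and -0.005 ± 0.16.

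High-fat library 6 at 15h stood apart from the other 3 libraries of that time in several clock genes. It held 4.04 FPKM of Arntl, against 2.33 to 2.35 in the others, and 47.3 FPKM of Nfil3, the D-box antagonist, against 16.3 to 19.8. It was also the highest of the 4 in Per1 and the lowest in Dbp and Nr1d1. Both high-fat libraries numbered 6 carried high immediate early genes, transcription factors induced within minutes of a stimulus: Fos was at 101 FPKM in the one at 15h and 162 FPKM in the one at 21h, and at 6.76 to 14.3 FPKM in the other 6 libraries. Without the 15h library, 6 of the 13 repressors had a positive difference, instead of 9, and 4 of them in all were at an unadjusted p under 0.05. What part this library's state had in the clock values was not tested.

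**Figure D1:**
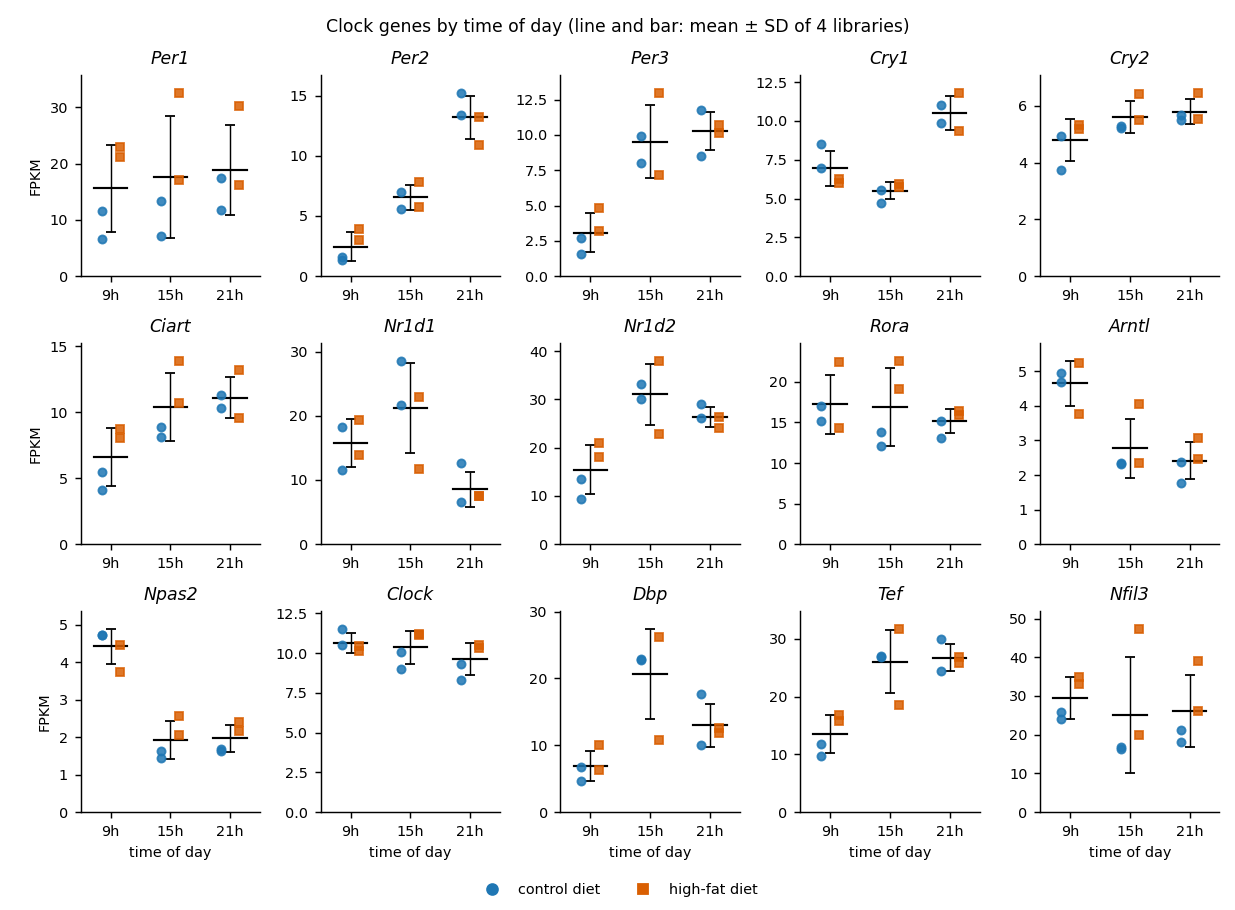
Levels of 15 clock genes in FPKM (vertical axis, from 0) at 9h, 15h and 21h, 1 point per library (circles control diet, squares high-fat diet), with the mean and SD of 4 libraries as line and bar. Per2 and Cry1 have all 4 libraries at 21h above all 4 at 15h, while Nr1d1 and Dbp have 1 high-fat library at 15h (11.7 and 10.8 FPKM) within the range at 21h.

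The levels at 9h, set beside these without a test, placed the 3 times in different orders for different clock genes. Per2 was lowest at 9h, with 1.31, 1.63, 3.95 and 2.97 FPKM (control libraries 2 and 3, high-fat libraries 6 and 7), so that its levels were ordered 9h, 15h, 21h with no overlap between neighbours. Cry1 at 9h was at 8.52, 7, 5.99 and 6.27 FPKM, above all libraries at 15h, of which the highest was at 5.97 FPKM, and below all at 21h. The 15h libraries therefore held the lowest Cry1 of the 3 times. Nr1d1 was at 11.5 to 19.4 FPKM at 9h, within the range at 15h except for its lowest library, and overlapped the 21h range by that library. Arntl and Npas2 were at 3.75 to 5.24 and 3.74 to 4.74 FPKM at 9h, and Npas2 was at most 2.58 FPKM in every library at 15h and 21h.

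Of the 10 genes with the smallest p, 8 were no clock genes, and 6 of these were lower at 21h. All 10 had no overlap between the times (2.96% of all genes had none), a trait that selection by p favours. Lce3a, a late cornified envelope protein of the outer epidermis (ENSMUSG00000054325, chromosome 3, 92925287 to 92926230, minus strand), was at 1.41, 0.576, 1.66 and 0.856 FPKM at 15h and at 8.08, 5.40, 3.75 and 6.46 FPKM at 21h. The means were 1.13 ± 0.498 and 5.92 ± 1.82 FPKM, and the log2 difference of 1.69 ± 0.23 was the greatest of the 10. Its neighbours of the same family did not show this in every library: Lce3b and Lce3f, chosen after their values were seen, were at 8.01 and 9.78 FPKM in control library 1 at 21h and at most 2.85 FPKM in each other library. Members of this family are alike in sequence, and the counting could have split their reads. Fmo1, a flavin-containing monooxygenase that oxidises drugs and amines, was at 4.57, 4.84, 3.70 and 4.36 FPKM at 15h and at 10.2, 7.46, 10.4 and 7.24 FPKM at 21h (0.86 ± 0.13). Both genes were higher in each 21h library, with limma adjusted p of 0.251 and 0.303.

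The genes that were lower at 21h had various known roles. Nmrk2, a nicotinamide riboside kinase known from muscle (ENSMUSG00000004939, chromosome 10, 81198170 to 81202051, minus strand), was at 2.84, 2.97, 3.03 and 3.04 FPKM at 15h and at 0.725, 0.918, 0.497 and 1.62 FPKM at 21h. The 15h values were close together (SD 0.0893 FPKM), and the log2 difference was -1.06 ± 0.16 (limma adjusted p = 0.303). Crisp1, a cysteine-rich secretory protein, was at 5.95, 10.5, 5.25 and 4.12 FPKM at 15h and at 1.94, 2.18, 1.80 and 2.12 FPKM at 21h, a log2 difference of -1.24 ± 0.19. The spread of Crisp1 was wide at 15h and narrow at 21h (SD 2.78 and 0.172 FPKM). Mrgprf, an orphan receptor of the MAS family, was at 3.11, 3.80, 2.30 and 2.49 FPKM and then at 1.76, 1.85, 1.28 and 1.25 FPKM (-0.62 ± 0.08, limma adjusted p = 0.222). Scx, the transcription factor scleraxis of tendon and ligament cells, was at 3.44 to 4.19 FPKM at 15h and at 2.49 to 2.64 FPKM at 21h (-0.44 ± 0.08). Ckb, the cytosolic brain-type creatine kinase, was at 14.9 to 18.0 FPKM at 15h and at 12.3 to 13.3 FPKM at 21h (-0.33 ± 0.05). The sixth gene, Cdc20, belongs with the mitosis genes described next. The skeletal muscle markers had a median log2 difference of -0.09, with -0.23 on the control diet and 0.15 on the high-fat diet. Of these markers 0 of 16 were at an unadjusted p under 0.05 (5.89% of all genes were). What part the amount of muscle had in the Nmrk2 values was not tested.

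**Figure D2:**
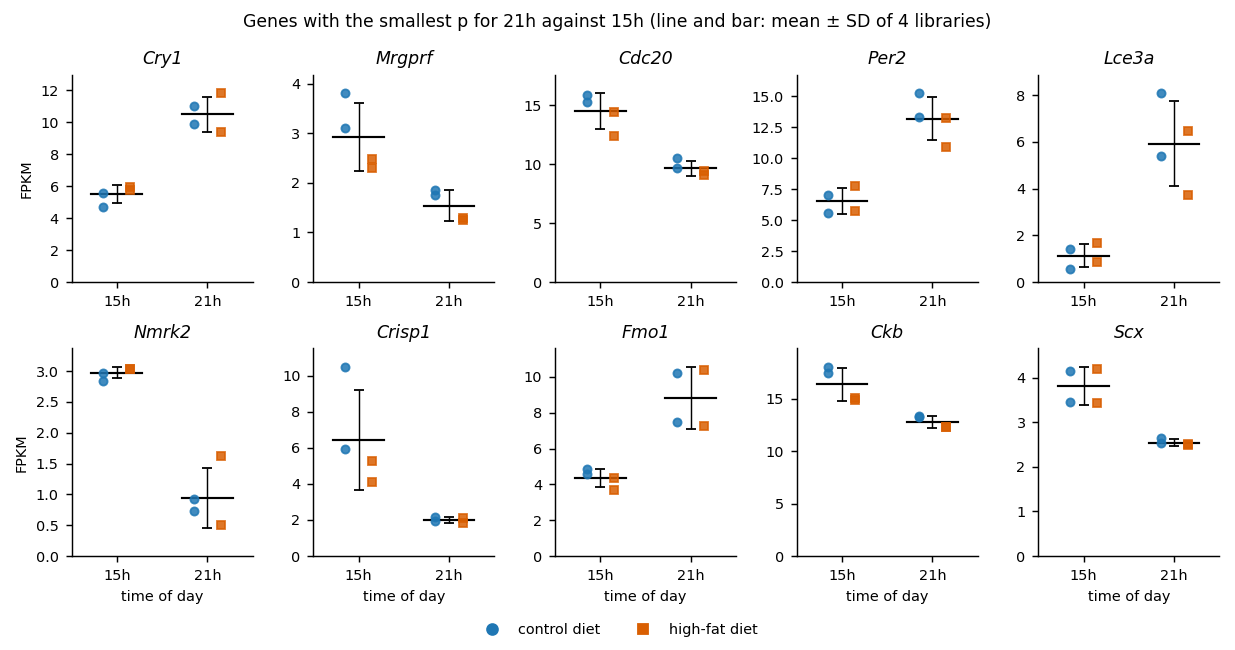
FPKM (vertical axis, from 0) at 15h and 21h of the 10 genes with the smallest p, 1 point per library (circles control diet, squares high-fat diet), with the mean and SD of 4 libraries as line and bar. In each panel the 4 libraries at 21h lie wholly above or wholly below the 4 at 15h. The genes were selected by p, which favours such separation.

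By size, 19 genes differed by at least 1 on the log2 scale, and 4 of them had no overlap: Lce3a and Angptl7 were higher at 21h and Nmrk2 and Crisp1 lower. Angptl7, a secreted angiopoietin-like protein chosen after its values were seen, was at 20.2, 32.3, 10.6 and 31.9 FPKM at 15h and at 60.0, 34.6, 64.1 and 34.2 FPKM at 21h. Control library 2 and high-fat library 6 at 21h were hardly above the highest libraries at 15h. The other 15 overlapped, and some rested on single libraries. Sprr2d and S100a8, which stressed keratinocytes express, were at 39.7 and 68.0 FPKM in control library 1 at 21h and at 1.39 to 4.48 and 11.3 to 11.7 FPKM in the other 3 at that time.

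The cell cycle genes included many of mitosis with lower values, and many of DNA replication with higher values, at 21h. The cell cycle list of 34 genes held 12 genes lower and 8 higher at an unadjusted p under 0.05, against 2.56% and 3.33% of all genes, and 0 passed the adjusted test. The genes were split into 20 of mitosis and 14 of replication by their textbook roles after their values had been seen, so the split is no independent evidence. All 12 lower genes were among the 20 of mitosis, all of which had a negative difference (median -0.27). The 8 higher genes were all among the 14 of replication, each of which had a positive difference (median 0.23). These genes, other than Cdc20, were chosen after their values were seen.

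Cdc20, the activator of the ubiquitin ligase that triggers chromosome separation (ENSMUSG00000006398, chromosome 4, 118432901 to 118437352, minus strand), was at 15.2, 15.9, 14.4 and 12.4 FPKM at 15h and at 10.5, 9.65, 9.38 and 9.05 FPKM at 21h. The means were 14.5 ± 1.52 and 9.65 ± 0.638 FPKM, with a log2 difference of -0.53 ± 0.07 and a limma adjusted p of 0.222. At 9h, Cdc20 was at 14.7 to 21.9 FPKM. The mitotic cyclins Ccnb2 and Ccnb1, partners of the kinase Cdk1, differed by -0.44 ± 0.08 and -0.33 ± 0.07. For both cyclins the groups overlapped. Mki67, the marker of cycling cells, was at 11.1, 12.9, 12.9 and 10.4 FPKM at 15h and at 9.31, 9.71, 9.15 and 9.28 FPKM at 21h. Mki67, Cenpf, a kinetochore protein, and Cenpe, a kinetochore motor, had no overlap, with log2 differences of -0.30 ± 0.08, -0.33 ± 0.09 and -0.23 ± 0.08. Cdk1 itself, Plk1, Aurkb and Bub1 were within -0.12 to -0.02.

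The replication genes with the clearest separation were Cdc6, which loads the replicative helicase, and Mcm7, a subunit of that helicase. Cdc6 was at 1.29, 1.29, 0.899 and 0.655 FPKM at 15h and at 1.75, 1.47, 1.34 and 1.41 FPKM at 21h (0.30 ± 0.09). Mcm7 was at 10.2, 10.0, 9.82 and 8.26 FPKM and then at 11.3, 13.1, 11.3 and 10.3 FPKM (0.24 ± 0.08). Neither gene overlapped. The other helicase subunits Mcm2, Mcm3, Mcm5 and Mcm6 differed by 0.31, 0.33, 0.38 and 0.25, and Mcm4 by 0.29 with an unadjusted p above the threshold. In Mcm2 to Mcm6, high-fat library 3 was the lowest at 21h and was not above all of the 15h libraries. Rrm2 and Cdt1, for the supply of deoxynucleotides and for licensing of origins, differed by 0.20 ± 0.07 and 0.22 ± 0.09.

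Both diets gave the same signs for most of these genes. The difference over both diets averages those on each diet, and the split was made after it was seen. The following counts by diet are therefore no independent evidence. The mitosis genes had negative differences in 20 of 20 on the control diet and 19 of 20 on the high-fat diet, with medians of -0.29 and -0.22. Of the 14 replication genes 12 and 13 were positive, with medians of 0.27 and 0.20. Over the other ways of processing, at most 2 of the mitosis genes tested had a positive difference, and the number at an unadjusted p under 0.05 was 4 to 13, lowest in the fit with the library number as a block. For replication that number was 2 to 10, with 3 when control library 1 at 21h or control library 3 at 15h was left out, 4 without control library 2 at 15h, 5 without high-fat library 6 at 21h and 2 without both high-fat libraries numbered 6.

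**Figure D3:**
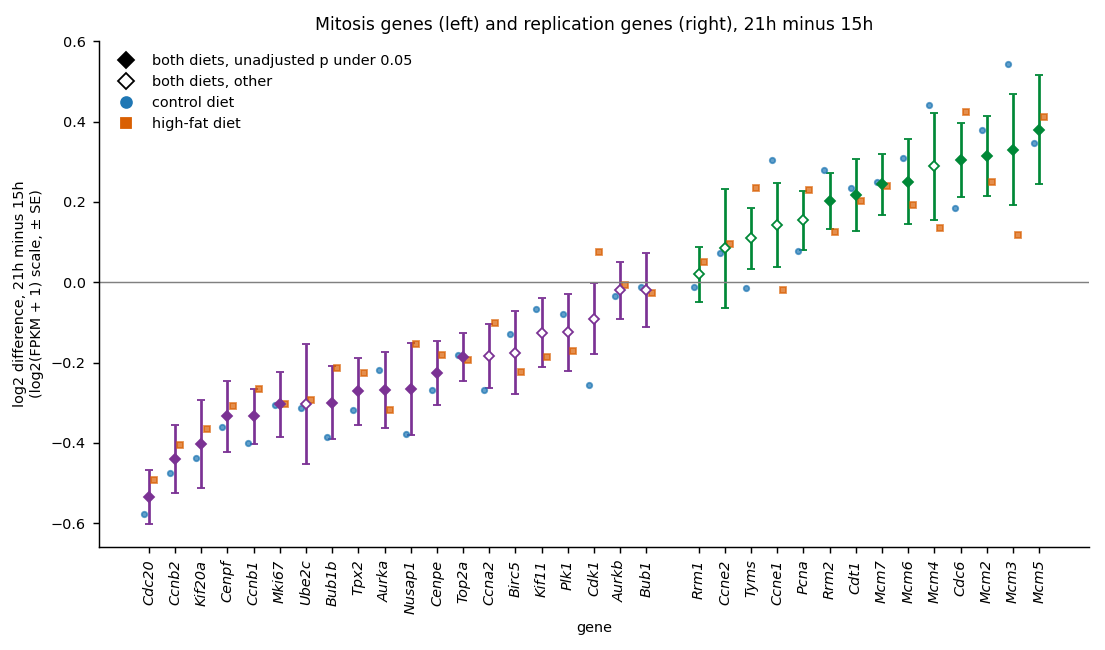
Log2 difference, 21h minus 15h, on the log2(FPKM + 1) scale (vertical axis) of 20 mitosis genes (left) and 14 replication genes (right), as diamonds with SE and filled where the unadjusted p is under 0.05. Small circles and squares give the difference on the control and the high-fat diet. All 20 mitosis values lie below 0 and all 14 replication values above it.

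Targets of the glucocorticoid receptor, the hormone receptor through which corticosterone acts, had positive differences in 18 of 18 genes tested (48.1% over all genes). Their median was 0.30, and 5 were higher at an unadjusted p under 0.05 (3.33% over all genes). Fkbp5, a co-chaperone of the receptor and a sensitive target, was at 7.81, 8.38, 5.98 and 7.97 FPKM at 15h and at 18.0, 9.46, 17.9 and 12.2 FPKM at 21h, with no overlap. Its log2 difference was 0.82 ± 0.21, with a limma adjusted p of 0.786. Tsc22d3, which encodes the glucocorticoid-induced leucine zipper protein, was at 20.4, 45.4, 34.9 and 37.3 FPKM and then at 76.5, 33.9, 81.2 and 57.3 FPKM (0.81 ± 0.30). Control library 2 at 21h was thus among the 15h values for Tsc22d3 and the lowest of its time for Fkbp5. The other 3 were Pdk4, an inhibitor of pyruvate dehydrogenase (0.59 ± 0.23), Mt1, a metallothionein (0.62 ± 0.24), and Zbtb16, a transcription factor (0.69 ± 0.28). These genes were chosen after their values were seen.

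The glucocorticoid count leaned on single libraries. It was 1 of 18 without control library 2 or high-fat library 2 at 15h, and also 1 without control library 1 or high-fat library 3 at 21h, and 6 without high-fat library 6 at 15h. The number of positive differences was 14 to 18 in these fits. The medians on the control and the high-fat diet were 0.39 and 0.30. Dusp1 and Errfi1, on this list and also induced by other stimuli, were at 156 and 58.1 FPKM in high-fat library 6 at 15h and at 191 and 61.1 FPKM in high-fat library 6 at 21h, and lay between 22.9 and 36.8 FPKM and between 17.0 and 33.4 FPKM in the other 6. The immediate early list, which shares such stimuli, held 0 of 20 genes at an unadjusted p under 0.05 (5.89% of all genes were) and had a median of 0.07.

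Ribosomal protein genes encode parts of the cytosolic ribosome. All 28 had a positive difference (48.1% of all genes did), with a median of 0.19. At an unadjusted p under 0.05, 13 were higher (3.33% of all genes), and 9 were higher with no overlap (1.49% of all genes). No list test was made and 0 passed the adjusted test. The genes of a list can vary together, and a shared sign can then rest on 1 library, as in the hair follicle list below. With single libraries left out, 27 or 28 of the ribosomal genes were positive. Without high-fat library 3 at 21h, 8 of them were at an unadjusted p under 0.05, with a median of 0.13. Rpl30 was at 33.5, 34.9, 18.3 and 23.8 FPKM at 15h and at 46.1, 39.4, 45.4 and 37.6 FPKM at 21h (0.63 ± 0.15, limma adjusted p = 0.786). Rps18 was at 261, 274, 201 and 229 FPKM and then at 328, 291, 344 and 283 FPKM (0.37 ± 0.11). In both genes the high-fat libraries at 15h were the lowest of all 8. Abundant members such as Rpl4 and Rplp0 differed by 0.06 ± 0.07 and 0.09 ± 0.08. The median was 0.13 on the control diet and 0.23 on the high-fat diet. Ribosomal genes have many near-identical pseudogenes, between which the counting could have split reads, and these genes too were chosen after their values were seen.

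Gene length moved with the time difference on the high-fat diet. The ribosomal genes are short, with a median of 1989.5 bases of merged exon against 4226 for all genes tested. Over all genes, the median log2 difference was 0.18 for the 140 genes of up to 600 bases, 0.14 for the 355 above 600 and up to 1000 bases and -0.04 for the 2136 above 8000 bases. On the control diet these medians were 0.01, 0.01 and -0.01, and on the high-fat diet 0.33, 0.25 and -0.06. Both high-fat libraries at 15h lay below the mean of the 8 libraries for the shortest genes, by 0.13 and 0.20, and high-fat library 3 at 21h lay above it by 0.24. After shifting every library to equal medians within 6 classes of length, a way of processing added after the data were seen, 14 of the 28 ribosomal genes were at an unadjusted p under 0.05 and the median was 0.17. What other part length had in the ribosomal values was not tested.

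**Figure D4:**
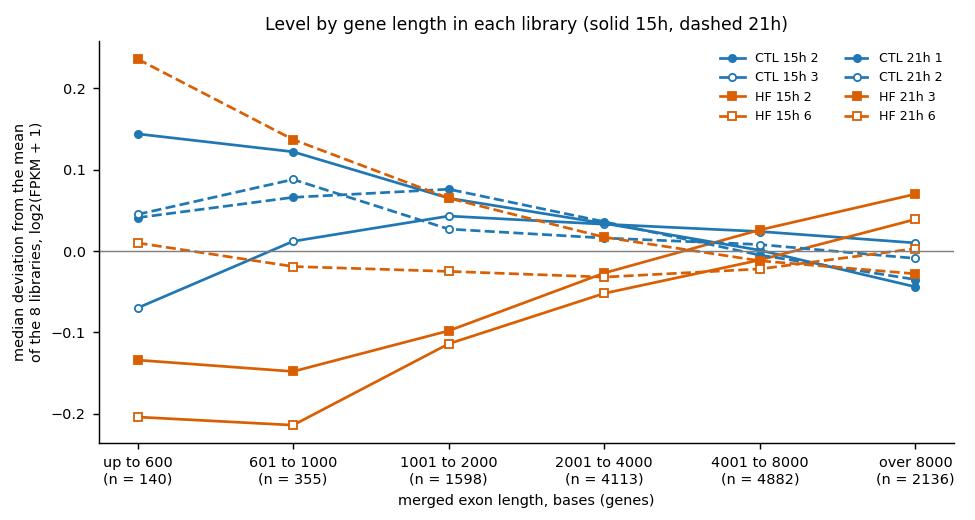
Median deviation of the genes of each length class from the mean of the 8 libraries (vertical axis, log2(FPKM + 1) units) against merged exon length in bases (horizontal axis, 6 classes with their number of genes), 1 line per library, solid at 15h and dashed at 21h. The high-fat libraries at 15h (-0.13 and -0.20 for the shortest genes) lie lowest on the left. They lie highest, by less (0.07 and 0.04), for the genes over 8000 bases on the right.

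Lists of genes for lipid, the main product of the gland, held no gene past the unadjusted threshold. In fatty acid synthesis (22 genes), cholesterol synthesis (25) and the making of wax and sterol esters (19), 0 genes were at an unadjusted p under 0.05. Over all genes 5.89% were. Their medians were -0.07, -0.01 and -0.07. Negative differences were found in 16, 16 and 15 of these genes, while 48.1% of all genes had a positive one. Scd1, the abundant stearoyl-CoA desaturase, was at 3684, 3385, 4799 and 4605 FPKM at 15h and at 2993, 3940, 4362 and 4409 FPKM at 21h (-0.07 ± 0.12). Awat2, the wax ester synthase of the gland, differed by 0.04 ± 0.12, and Sqle, an enzyme of cholesterol synthesis, by 0.01 ± 0.06. All 3 genes, chosen after their values were seen, overlapped between the times. The lowest difference of the wax and sterol ester list was that of Fa2h, -0.71 ± 0.31, with -0.14 on the control and -1.28 on the high-fat diet. In fatty acid synthesis it was that of Elovl6, -0.35 ± 0.18. Both genes overlapped as well. The 12 meibocyte markers had a median of -0.07 and 0 genes at an unadjusted p under 0.05.

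The marker lists of basal keratinocytes and endothelium held some genes that were lower at 21h. Itgb4 and Itga6, the integrin pair that anchors basal keratinocytes to the basement membrane, were lower in every 21h library. Itgb4 was at 19.2, 18.2, 18.9 and 17.0 FPKM at 15h and at 13.8, 15.4, 12.7 and 14.1 FPKM at 21h (-0.36 ± 0.07, limma adjusted p = 0.585). Itga6 was at 25.6, 28.6, 26.7 and 26.1 FPKM and then at 22.4, 24.1, 18.3 and 21.1 FPKM (-0.31 ± 0.08). Col17a1, a collagen of the same anchoring complex, differed by -0.28 ± 0.12 with overlap. The keratins of those cells did not follow: Krt5, Krt14 and Krt15 differed by 0.02 ± 0.10, -0.04 ± 0.12 and -0.001 ± 0.13. So 3 of 8 basal markers were lower at an unadjusted p under 0.05 (the list median was -0.12). Of 10 endothelial markers 2 were lower at that threshold, Kdr and Tek, which encode receptors of vascular growth factors (-0.24 ± 0.07 and -0.23 ± 0.09). The median of the endothelial list was -0.12, and 3 of its 10 genes had a positive difference. Over all genes, 2.56% were lower at that threshold. The 5 lower genes named here were chosen after their values were seen.

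The outer layers of the epidermis varied by library more than by time. Markers of differentiated keratinocytes had a median of 0.61 on the control diet and -0.94 on the high-fat diet, with 0 of 13 at an unadjusted p under 0.05. Krt10, a keratin of those layers, was at 158, 47.7, 350 and 32.6 FPKM at 15h and at 488, 48.4, 42.2 and 39.9 FPKM at 21h. Control library 1 at 21h and high-fat library 2 at 15h were the highest. Stressed keratinocyte markers had a median of 0.48, with 1.04 on the control and -0.06 on the high-fat diet, and 1 of 11 at an unadjusted p under 0.05. Over all genes 5.89% were at that threshold, so counts this low in lists of this size do not set them apart. Control library 1 at 21h had the highest mean log2 level of this list, 6.50 against 4.47 to 5.57 in the other 7, and of the neutrophil list, 5.14 against 2.98 to 4.68. S100a8 and S100a9 were on both lists, and only 5 neutrophil genes were tested, so these list levels are not independent. Control library 1 at 21h also held the highest Lce3a. The part of stressed keratinocytes or neutrophils in the Lce3a values was not tested. All 19 hair follicle genes had a negative difference, with a median of -0.12 and 0 at an unadjusted p under 0.05. The median turned to 0.05 without high-fat library 2 at 15h and to 0.03 without control library 1 at 21h. In each of these fits 11 of the 19 were positive, so the shared sign rested on single libraries.

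Immune and stress lists held few genes past the unadjusted threshold, which 3.33% of all genes passed as higher and 2.56% as lower. Interferon response (24 genes, median -0.06), T cells (15, 0.16), macrophages (13, 0.17), neutrophils (5, 0.32) and inflammatory cytokines (22, 0.10) held 0. For heat shock proteins, 1 of 18 was higher (Hspa1b, 0.17 ± 0.06) and 1 lower (Hspb1, -0.28 ± 0.11). In the unfolded protein response 3 of 18 were higher, Manf, Atf4 and Herpud1, at 0.24, 0.16 and 0.20, while the list median was 0.01. In insulin and IGF signalling, Pik3r1 was higher (0.21 ± 0.07) and Akt2, Igfbp3 and Igfbp5 lower (-0.16, -0.38 and -0.26) of 15 genes. Of the 41 lists, 23 held no gene at an unadjusted p under 0.05. These genes were chosen after their values were seen.

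**Figure D5:**
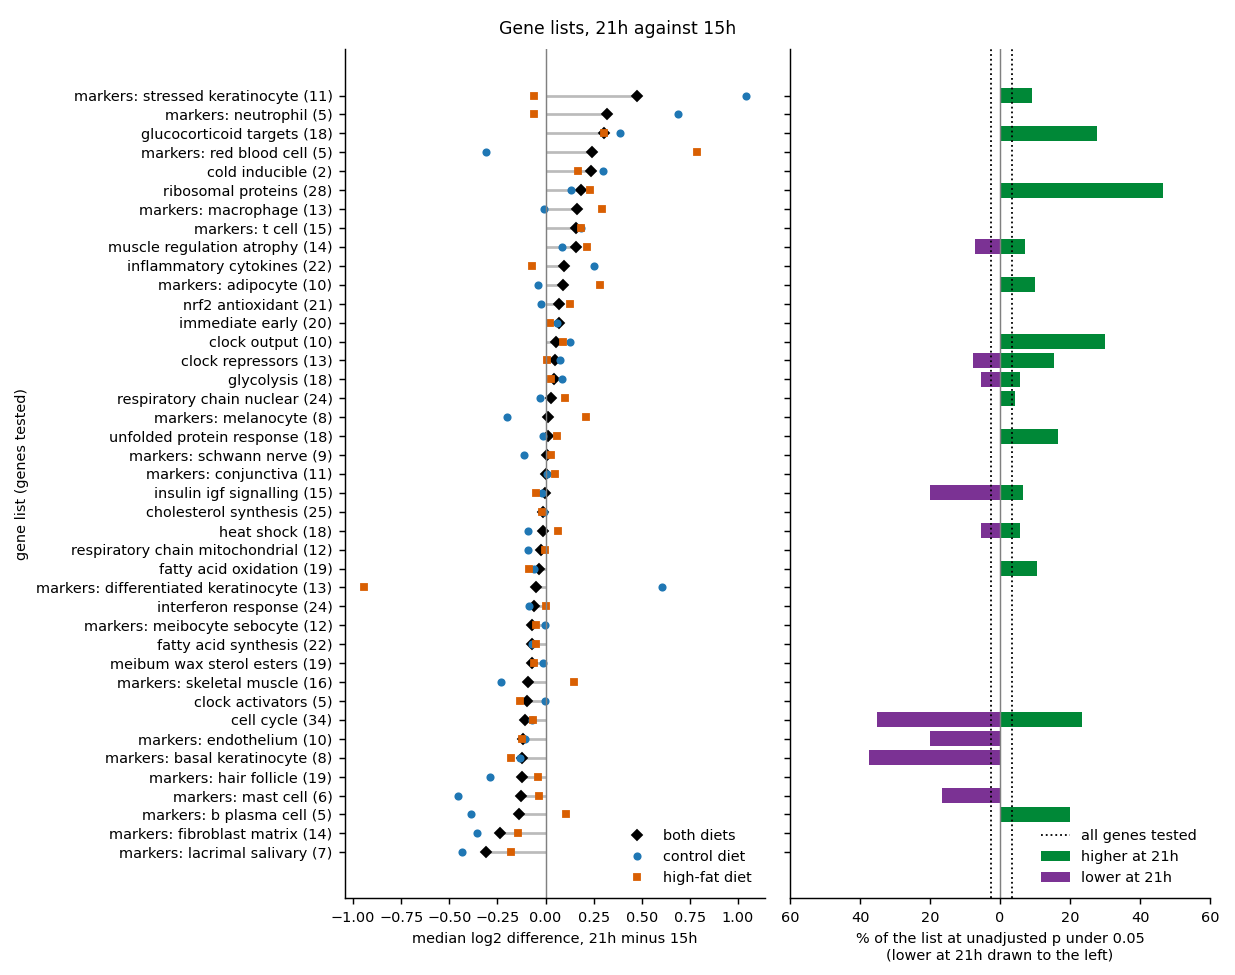
For 41 gene lists, the median log2 difference, 21h minus 15h (left, diamonds for both diets, circles control, squares high-fat), and the share of the list at an unadjusted p under 0.05 (right, in %, higher at 21h to the right of 0 and lower to the left). Dotted lines mark the shares over all genes tested, 3.33% and 2.56%. Ribosomal proteins and the cell cycle list extend farthest from those lines among lists of 20 or more genes.

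On each diet alone, with 2 libraries against 2, limma called 0 of 13228 genes. On the control diet 469 genes (3.55%) and on the high-fat diet 805 (6.09%) were at an unadjusted p under 0.05, and the smallest adjusted p was 1 and 0.626. The 5 genes with the smallest p on the control diet were Cry1 (0.90 ± 0.13), Crisp1 (-1.54 ± 0.23), Enho (-1.01 ± 0.15), Angpt4 (-0.96 ± 0.15) and Per2 (1.07 ± 0.17). On the high-fat diet they were Atpif1 (0.90 ± 0.11), Inmt (0.78 ± 0.10), Ttc32 (0.71 ± 0.10), Smim22 (1.40 ± 0.21) and Mtln (0.66 ± 0.10). Cry1 and Per2 on the high-fat diet differed by 0.75 ± 0.13 and 0.76 ± 0.17. Atpif1, the inhibitor of the mitochondrial ATP synthase, was at 17.9 and 16.9 FPKM in the control and 8.42 and 10.6 FPKM in the high-fat libraries at 15h, and at 18.4 to 19.3 FPKM in all 4 at 21h. Mtln, a small mitochondrial protein, was at 41.0, 40.2, 28 and 23.1 FPKM and then at 44.0, 43.4, 40.8 and 40.6 FPKM. In both genes the high-fat libraries at 15h were the low ones.

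Without high-fat library 6 at 15h, limma called 4 genes on the high-fat diet (smallest adjusted p 0.0170), with the lone remaining library assumed to vary like the other groups. They were, chosen after their values were seen, Ftl1 (ferritin light chain), Ndufb1-ps and AA467197, higher by 1.98, 1.47 and 1.84 on the log2 scale, and Serpinb6d, lower, at -3.88. Over the alternatives the smallest adjusted p of that diet was 0.0170 to 0.9995.

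The interaction of diet and time was tested by itself and called 0 of 13228 genes. Its unadjusted p was under 0.05 in 528 genes (3.99%), and no adjusted p was lower than 0.999. Its 5 smallest p-values belonged to Nutf2-ps1, Enho, Ttc32, Mgl2 and a locus with 799 bases of exon under the symbol Aldoa (ENSMUSG00000114515), which shares its symbol, and may share reads, with the main aldolase gene. Enho, which encodes the peptide adropin, was at 7.86, 7.13, 3.09 and 2.75 FPKM at 15h and at 3.86, 2.63, 3.47 and 3.89 FPKM at 21h, an interaction of 1.27 ± 0.22. The control libraries at 15h held more Enho than all others. Mgl2, a lectin of macrophages and dendritic cells, was at 11.6, 11.1, 6.26 and 6.35 FPKM and then at 10.1, 8.22, 9.01 and 9.19 FPKM (0.76 ± 0.15). For Mgl2 the high-fat libraries at 15h were the lowest. No difference between the diets in the time effect was therefore shown for any gene at this number of libraries.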

How the data were processed

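RNA-seq of eyelid tissue gave 12 libraries, of which the 8 at 15h and 21h were compared. Libraries were made from Trizol-extracted RNA with the NEBNext Ultra II kit, per the labels' protocols. The authors deposited 1 table of FPKM values for 21936 genes. Per the submitters' processing notes, the tools were HISAT2 2.0.5, DESeq 1.30.0 and HTSeq 0.9.1 and the build was mm9, while 21894 of the identifiers are in GENCODE M21 (GRCm38). Coordinates and exon lengths are therefore given from that annotation, and none are given in mm9. Symbols occurring more than once number 31.

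Genes above 1 FPKM in at least 2 of the 12 libraries were kept (13228). log2(FPKM + 1), which understates differences of low genes, was fitted with limma 3.58.1 (R 4.3.3, moderated with a mean-variance trend) with terms for diet and time, leaving 5 residual degrees of freedom. p-values were adjusted by Benjamini-Hochberg over all genes, with a threshold of 0.05. Each diet and the interaction were tested in a fit of the 4 group means with 4 residual degrees of freedom. Whole reads were recovered from the steps of the FPKM values. In each library 98.1 to 98.2% of values came out within 0.02 of a whole read, which gave 14096362 to 16629317 reads per library, and limma-voom was run on those reads. The test was checked on simulated data. No overlap means that all 4 libraries at one time exceed all 4 at the other.

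Named genes are the 10 with the smallest p, 28 clock genes, and the 5 with the smallest p on each diet and in the interaction, 45 in all. Some items are not reported here. The members and the gene lists were chosen with earlier results of these data known. For list members that share a symbol, the gene of the higher mean was used. The alternatives were a pseudocount of 0.1, no filter, a filter of 5 FPKM in 4 libraries, all 12 libraries, no diet term, 2 rescalings, limma-voom, leaving out each library, leaving out both high-fat libraries numbered 6, a replicate block, and equal medians by gene length.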

Additional observations from a re-analysis of the deposited data

Results flagged for a closer look

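In each of the 45 named genes, the 4 libraries of each time were checked for 1 library far from the other 3. The measure was the gap to the nearest library as a share of the whole range, both taken on the log2(FPKM + 1) scale. It was set against Dixon's critical value, which chance exceeds in about 1 of 20 groups. Levels below are in FPKM, and the gaps are those of the log2 scale. Of 90 such groups, 3 had one, which is fewer than 1 in 20. Arntl at 15h was at 4.041 FPKM in high-fat library 6 against 2.325 to 2.355 FPKM in the others, a gap of 0.979 of the range. Dbp at 15h was at 10.807 FPKM in the same library against 22.704 to 26.25 FPKM, a gap of 0.833 of the range. Noct, a deadenylase-like phosphatase that follows the clock, was at 6.094 FPKM at 21h in high-fat library 6 against 4.506 to 4.727 FPKM, a gap of 0.845 of the range.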

How the results depend on the processing

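The count of called genes for 21h minus 15h was 0 in all 19 alternatives. The smallest adjusted p was 0.0758 to 0.901 when a library was left out and 0.113 to 0.435 in the other 11, with 547 to 1002 and 296 to 1108 genes at an unadjusted p under 0.05. On the control diet and in the interaction the count was 0 throughout. On the high-fat diet it was 0 to 4 over the fits without a library, and 4 without high-fat library 6 at 15h. Of the 45 named genes, 26 kept their sign in all alternatives and 19 did not. The cause of the changes was not tested.

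The fit of all 12 libraries with the library number within a diet as a replicate block (3 residual degrees of freedom) called 0 genes and left 296 with an unadjusted p under 0.05. In it the ribosomal list had 0 genes past that threshold and a median of 0.06, the basal keratinocyte list 0 and -0.02, the clock output list 0, and the mitosis genes 4. Dbp was at -0.117. Deviations of libraries with the same number at 15h and 21h correlated at 0.048 and 0.289, so the numbers were not taken to pair the libraries. The block turned the sign of Arntl2 (0.025), Clock (0.008), Hlf (0.317), Nfil3 (-0.013), Npas2 (-0.031), Nr1d2 (0.006), Rora (0.055), Usp2 (-0.007), Nutf2-ps1 (-0.039) and Mgl2 (-0.103).

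Without both high-fat libraries numbered 6, signs turned for Arntl (0.009), Cry2 (-0.012), Csnk1e (-0.046), Per3 (-0.008), Tef (-0.073), Nutf2-ps1 (-0.049) and Mgl2 (-0.042). Hlf turned with equal library medians (0.004), and with equal medians by length class, chosen after seeing the data, Hlf (0.012) and Nutf2-ps1 (-0.032) did. Leaving out single libraries gave ranges across 0 for Bhlhe41 (-0.036 to 0.129), Csnk1e (-0.024 to 0.083), Hlf (-0.146 to 0.098), Nampt (-0.002 to 0.058), Nfil3 (-0.084 to 0.401), Noct (-0.048 to 0.164), Npas2 (-0.008 to 0.08), Per1 (-0.021 to 0.437), Per3 (-0.026 to 0.282), Tef (-0.1 to 0.198), Usp2 (-0.051 to 0.085) and Nutf2-ps1 (-0.085 to 0.253).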

Other observations

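Further genes with no overlap between the times, chosen after their values were seen, included receptors and secreted signals. Over all genes 391 (2.96%) had no overlap, so this trait alone does not set the chosen genes apart. Ngfr, the low-affinity neurotrophin receptor, was at 7.32, 7.88, 8.09 and 5.59 FPKM at 15h and at 4.60, 4.75, 3.33 and 4.47 FPKM at 21h (log2 difference -0.63 ± 0.12). Artn, the neurotrophic ligand artemin, was at 1.02, 1.32, 0.868 and 1.12 FPKM and then at 0.391, 0.419, 0.619 and 0.475 FPKM (-0.49). Both were lower in every 21h library. Npy1r, a receptor of neuropeptide Y, was at 3.00, 3.59, 2.36 and 3.75 FPKM at 15h and at 7.56, 4.69, 5.55 and 5.52 FPKM at 21h (0.71 ± 0.15). Nmb, which encodes the peptide neuromedin B, was at 1.78, 2.39, 2.47 and 2.28 FPKM and then at 3.64, 3.66, 6.17 and 3.64 FPKM (0.69 ± 0.14). The latter pair was higher in every 21h library, and as for all other genes no adjusted p was under 0.222 in limma.

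Some abundant epithelial genes, also chosen after their values were seen, were among the 2.96% of all genes without overlap. Serpinb3a, a protease inhibitor of stratified epithelium, was at 252, 294, 252 and 259 FPKM at 15h and at 342, 373, 321 and 341 FPKM at 21h (0.38 ± 0.08). Defb1, an antimicrobial beta-defensin, was at 131, 139, 107 and 140 FPKM and then at 170, 159, 189 and 178 FPKM (0.43 ± 0.11). Upk1b, a uroplakin, was at 29.4, 39.3, 39.0 and 39.2 FPKM and then at 47.1, 48.3, 52.0 and 46.7 FPKM (0.40 ± 0.09). All 3 were higher at 21h on both diets.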
